A study of Homo sapiens with 60 samples.

Results

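The 10 genes described here encode the main plasma apolipoproteins made by hepatocytes and 2 proteins that act with them. They are APOA1, APOA2, APOB, APOC1, APOC3, APOE, APOH, APOM, MTTP and LCAT. They were taken by symbol from the 60675 Ensembl genes of the deposited count table, and all 10 were found and passed the filter on low counts, among 16093 genes tested. Messenger RNA was sequenced from HepG2, a human liver cancer line that secretes lipoproteins, after 24 h with water extracts of medicinal plants. Aconiti Lateralis Radix Preparata, Cimicifugae Rhizoma, Bupleuri Radix and Citri Unshius Pericarpium are single plants. Yijung-tang, Banhasasim-tang and Bojungikgi-tang are mixtures. Doses were 20, 100 and 500 µg/mL. The first 6 of these extracts have 3 libraries at each dose and Bojungikgi-tang has 1, and 3 libraries are of cells given vehicle (0.1% DMSO per the labels), 60 in all. A line grown alone lacks the other cells of liver, and nothing in the labels says that libraries of a group came from separate cultures. The p-values below therefore speak of the spread between these libraries, which may be technical.

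A lipoprotein is a droplet of triglyceride and cholesteryl ester with a coat of phospholipid and apolipoproteins. In hepatocytes MTTP, the microsomal triglyceride transfer protein, loads lipid onto APOB while it enters the endoplasmic reticulum, and the particle leaves the cell as very low density lipoprotein. APOA1 and APOA2 are the main proteins of high density lipoprotein (HDL), on which LCAT esterifies cholesterol and APOM carries sphingosine 1-phosphate. APOE is a ligand of cell surface receptors that take up lipoproteins, APOC1 and APOC3 are small exchangeable proteins that hinder lipolysis and uptake, and APOH is a glycoprotein that binds anionic phospholipids.

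Libraries held 17598646 to 30451640 expected counts, the fractional read estimates that the authors deposited, with 21014795 to 22891342 in the vehicle libraries. Levels are CPM, a library's counts scaled to a common total, with the total adjusted by TMM, a trimmed mean of ratios between libraries, and changes are log2 fold changes with standard errors (SE) from edgeR's quasi-likelihood model of 57 replicated libraries in 19 groups. A gene was called at a Benjamini-Hochberg adjusted p under 0.05 over all genes of a comparison. The titles mark every library, vehicle included, as BatchB. Within it the title codes put Citri Unshius Pericarpium with Cimicifugae Rhizoma, Bupleuri Radix with Aconiti Lateralis Radix Preparata, and Yijung-tang with Banhasasim-tang in sets of their own. The code of the vehicle is a set without extracts, and the labels do not say what the sets stand for. Set and treatment therefore cannot be told apart in any comparison with vehicle, while doses of an extract lie within 1 set. Of 14 hepatocyte markers 13 were abundant and TM4SF4 stayed at or below 0.587 CPM. Summed markers of leukocytes (1.13 to 15.7 CPM), endothelium (2.39 to 6.71 CPM) and fibroblasts (6.51 to 16.5 CPM) were low, whereas those of cholangiocytes reached 439.7 to 620.9 CPM through KRT19, SOX9 and EPCAM, with KRT7 at or below 0.143 CPM. Vehicle replicate 2 stood apart, with HBA1 at 79.9 CPM, HBB at 42.9 CPM, PTPRC at 6.93 CPM and CD3E at 5.48 CPM, against at most 2.60 CPM of HBA1 and at most 0.0495 CPM of the other 3 genes in any extract library. Results against vehicle are given with and without it where it matters.

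In vehicle cells the order of the levels per kilobase of exon was APOA2, APOB, APOH, APOA1, APOE, APOC1, APOC3, APOM, MTTP and LCAT. APOA2 had 2106 ± 72.6 CPM per kb (SD, n = 3 here and below) and APOB 1311 ± 12.7 CPM per kb. APOH followed with 1068 ± 18.5 CPM per kb and APOA1 with 697.9 ± 50.2 CPM per kb. APOE stood at 209.3 ± 15.2, APOC1 at 92.7 ± 2.73 and APOC3 at 56.7 ± 3.75 CPM per kb. The least abundant were APOM at 35.9 ± 0.956, MTTP at 17.5 ± 0.374 and LCAT at 12.1 ± 0.408 CPM per kb. No neighbours in this order overlapped within their SD. The exons of APOB span 14828 bases, and that gene alone took 2.00% of all counts in vehicle cells. The 10 genes together took 2.08% (Aconiti Lateralis Radix Preparata at 500 µg/mL) to 2.78% (Yijung-tang at 20 µg/mL) over the 21 extract groups, against 2.54% in vehicle.

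**Figure D1:**
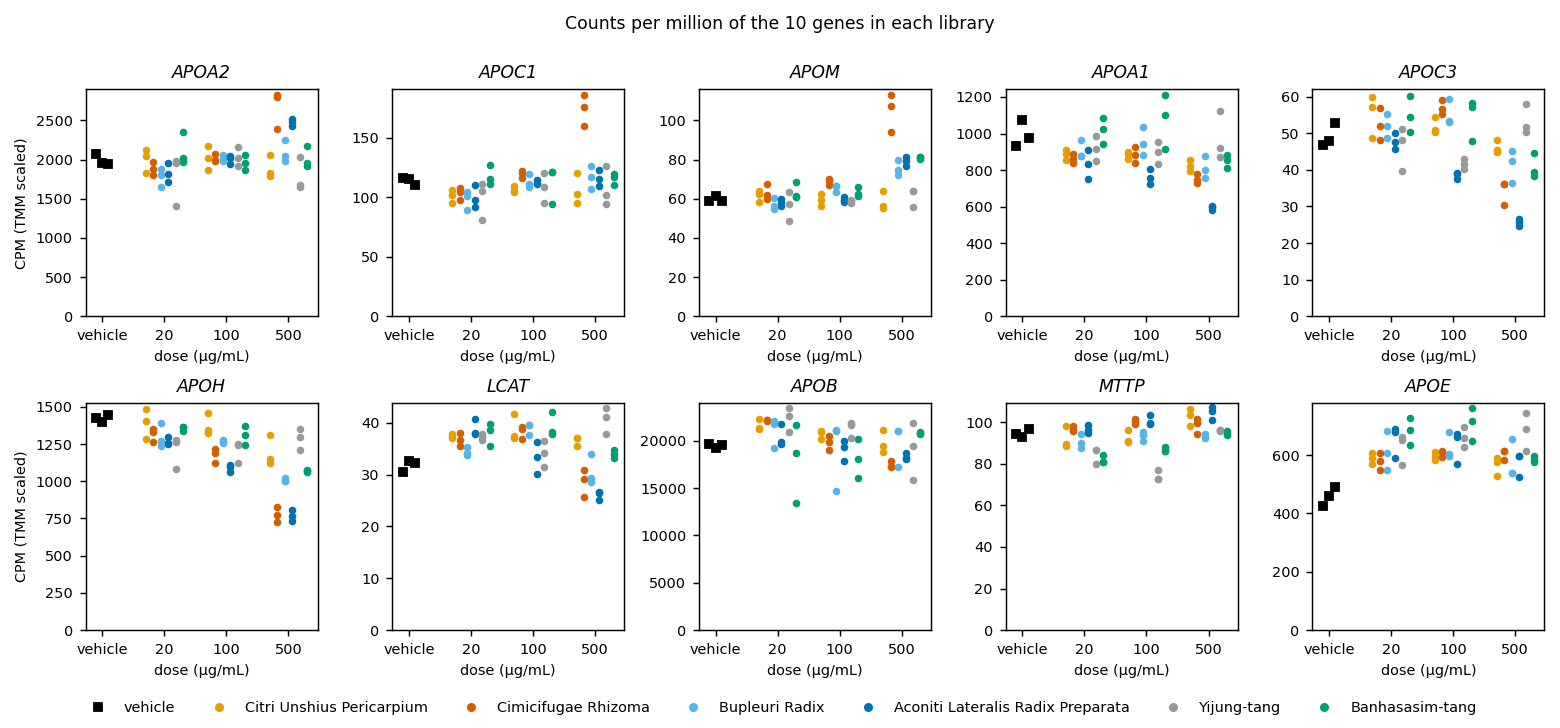
Level of each gene in CPM in each library of the 6 replicated extracts at 20, 100 and 500 µg/mL and of the vehicle, 3 libraries per group. APOM in Cimicifugae Rhizoma at 500 µg/mL, at 94.2 to 112.8 CPM, lies above every other library, and APOC3 in Aconiti Lateralis Radix Preparata at 500 µg/mL, at 24.6 to 26.7 CPM, lies below every other library.

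The comparison least affected by the sets was 500 against 20 µg/mL of the same extract. In Cimicifugae Rhizoma 3 of the 10 genes rose and 5 fell, beside 39.2% of all tested genes called. In Aconiti Lateralis Radix Preparata 3 rose and 4 fell, with 37.2% of all genes called, in Banhasasim-tang 2 rose and 4 fell, with 15.1%, and in Bupleuri Radix 2 rose and 2 fell, with 18.8%. In Citri Unshius Pericarpium 1 rose and 1 fell, with 1.65%. In Yijung-tang 1 rose and none fell, with 3.77%. The members' share called was above the background in the first 4 of these extracts. The members had at least 474.6 counts in every library, while the background held genes near the filter's minimum count of 10. Small changes are called more readily at high counts, and the members were chosen with earlier results of these data known. The excess therefore cannot be read as a trait of these genes. With 1 or 2 calls of 10, nothing can be read against the background in Yijung-tang or Citri Unshius Pericarpium, and without single libraries Citri Unshius Pericarpium had 0 to 2. The median log2 fold change of the 10 genes was -0.09 in Cimicifugae Rhizoma, -0.18 in Aconiti Lateralis Radix Preparata, -0.12 in Banhasasim-tang, -0.09 in Bupleuri Radix, 0.12 in Yijung-tang and -0.08 in Citri Unshius Pericarpium, where the medians of all genes lay between 0.001 and 0.003. The members differed in direction: APOA2, APOC1, APOM and MTTP were the genes that rose, and APOA1, APOB, APOC3, APOE, APOH and LCAT those that fell. In bulk RNA, fewer cells of a kind and less RNA per cell cannot be told apart.

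**Figure D2:**
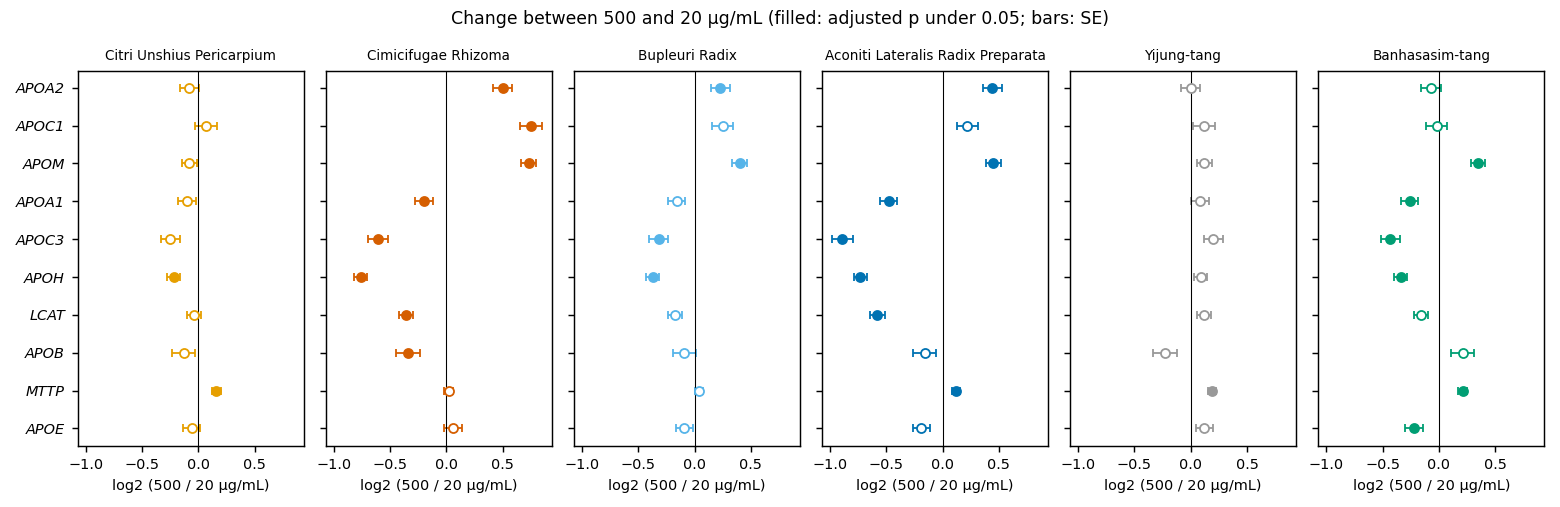
Log2 fold change of each gene between 500 and 20 µg/mL for the 6 replicated extracts, with its SE (3 libraries per group); filled points were called at an adjusted p under 0.05. APOH, at -0.76 to -0.22, was called in every extract except Yijung-tang, and APOM, at 0.35 to 0.73, in 4 extracts.

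APOM, the carrier of sphingosine 1-phosphate on HDL, rose in 4 extracts. In Cimicifugae Rhizoma it had 107.2, 112.8 and 94.2 CPM at 500 µg/mL, against 59.8, 67.4 and 62.2 CPM at 20 µg/mL. Those groups did not overlap, and the log2 fold change was 0.73 (SE 0.0644, edgeR adjusted p = 1.82e-13), a 1.66-fold level. In Banhasasim-tang it had 81.1, 81.1 and 80.4 CPM at 500 µg/mL, against 60.9, 68.7 and 61.3 CPM at 20 µg/mL (0.35, SE 0.0635, edgeR adjusted p = 6.11e-05). Aconiti Lateralis Radix Preparata gave 81.3, 76.9 and 79.4 CPM at 500 µg/mL, against 56.4, 59.8 and 58.2 CPM at 20 µg/mL (0.45, SE 0.0647, edgeR adjusted p = 1.49e-07), and Bupleuri Radix 74.9, 71.9 and 80.0 CPM, against 54.9, 60.5 and 56.4 CPM (0.40, SE 0.0645, edgeR adjusted p = 3.19e-06). In all 4 extracts each library at 500 µg/mL was above each library at 20 µg/mL. In Citri Unshius Pericarpium (-0.08, edgeR adjusted p = 0.757) and Yijung-tang (0.12, edgeR adjusted p = 0.423) the libraries of the doses overlapped.

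APOC1, an exchangeable apolipoprotein that hinders uptake of remnant particles, was called in Cimicifugae Rhizoma alone among the 6 extracts. It had 185.8, 175.7 and 160.1 CPM at 500 µg/mL, against 97.7, 107.6 and 104.4 CPM at 20 µg/mL, without overlap (0.75, SE 0.0960, edgeR adjusted p = 6.60e-09). Its values in Bupleuri Radix (0.25, edgeR adjusted p = 0.0572) and Aconiti Lateralis Radix Preparata (0.22, edgeR adjusted p = 0.0730) missed the threshold. APOA2, the second protein of HDL, rose in Cimicifugae Rhizoma, with 2802, 2828 and 2384 CPM at 500 µg/mL, against 1803, 1974 and 1874 CPM at 20 µg/mL (0.50, SE 0.0856, edgeR adjusted p = 3.27e-06). It rose in Aconiti Lateralis Radix Preparata as well, with 2474, 2523 and 2433 CPM at 500 µg/mL, against 1719, 1956 and 1816 CPM at 20 µg/mL (0.44, SE 0.0855, edgeR adjusted p = 4.12e-05). Both pairs of groups stayed apart. In Bupleuri Radix the change was smaller (0.23, edgeR adjusted p = 0.0471) and was not called under DESeq2 (adjusted p = 0.0516), under total count scaling (adjusted p = 0.0969) or without any 1 of 5 libraries.

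APOH, the phospholipid-binding glycoprotein also known as beta-2-glycoprotein I, fell in 5 of the 6 extracts. In Cimicifugae Rhizoma it had 827.1, 774.5 and 726.4 CPM at 500 µg/mL, against 1350, 1333 and 1265 CPM at 20 µg/mL (-0.76, SE 0.0575, edgeR adjusted p = 1.17e-15). In Aconiti Lateralis Radix Preparata it had 805.3, 764.0 and 733.0 CPM at 500 µg/mL, against 1249.8, 1299.7 and 1257 CPM at 20 µg/mL (-0.73, SE 0.0574, edgeR adjusted p = 5.64e-15). Every library at 500 µg/mL was far below every library at 20 µg/mL in these extracts. Bupleuri Radix gave 998.4, 1002 and 1022 CPM at 500 µg/mL, against 1237, 1389 and 1269 CPM at 20 µg/mL (-0.37, SE 0.0570, edgeR adjusted p = 1.89e-06). Banhasasim-tang gave 1075, 1059.9 and 1066 CPM at 500 µg/mL, against 1338, 1363 and 1361 CPM at 20 µg/mL (-0.34, SE 0.0570, edgeR adjusted p = 1.04e-05). The doses did not overlap there either. In Citri Unshius Pericarpium the libraries overlapped, with 1312, 1124 and 1146 CPM at 500 µg/mL, against 1488, 1404 and 1283 CPM at 20 µg/mL (-0.22, edgeR adjusted p = 0.0265), and the call was lost without any 1 of 4 libraries (adjusted p of 0.1101 to 0.221).

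APOC3, which hinders triglyceride clearance, fell in 4 extracts, most in Aconiti Lateralis Radix Preparata. There it had 26.7, 25.9 and 24.6 CPM at 500 µg/mL, against 45.6, 50.1 and 47.7 CPM at 20 µg/mL (-0.89, SE 0.0907, edgeR adjusted p = 1.54e-11), a 0.538-fold level without overlap. In Cimicifugae Rhizoma it had 36.2, 36.2 and 30.5 CPM at 500 µg/mL, against 48.1, 56.99 and 52.0 CPM at 20 µg/mL (-0.61, SE 0.0893, edgeR adjusted p = 1.91e-07). Banhasasim-tang (-0.43, SE 0.0842, edgeR adjusted p = 1.62e-04) and Bupleuri Radix (-0.32, SE 0.0851, edgeR adjusted p = 0.00415) gave smaller falls. The Bupleuri Radix call was lost without its replicate 2 at 500 µg/mL (-0.24, adjusted p = 0.0671). LCAT, which esterifies cholesterol on HDL, fell in Aconiti Lateralis Radix Preparata, with 26.4, 25.1 and 26.6 CPM at 500 µg/mL, against 37.9, 38.0 and 40.7 CPM at 20 µg/mL (-0.58, SE 0.0640, edgeR adjusted p = 1.76e-10). In Cimicifugae Rhizoma LCAT had 29.1, 30.9 and 25.7 CPM at 500 µg/mL, against 36.7, 35.4 and 38.0 CPM at 20 µg/mL (-0.36, SE 0.0653, edgeR adjusted p = 1.00e-05). Neither pair of groups overlapped.

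APOA1, the main HDL protein, fell most in Aconiti Lateralis Radix Preparata, where it had 582.3, 605.9 and 598.6 CPM at 500 µg/mL, against 752.7, 910.8 and 833.7 CPM at 20 µg/mL (-0.48, SE 0.0788, edgeR adjusted p = 1.66e-06). The falls in Cimicifugae Rhizoma (-0.20, edgeR adjusted p = 0.0397) and Banhasasim-tang (-0.26, edgeR adjusted p = 0.0159) were not called once the trend of each library with transcript GC content was removed (adjusted p of 0.0572 and 0.0582). Without single libraries they were lost in 4 and 2 of 6 refits. APOE, the receptor ligand, was called in Banhasasim-tang alone, with 596.5, 576.8 and 583.6 CPM at 500 µg/mL, against 632.9, 727.7 and 686.3 CPM at 20 µg/mL (-0.22, edgeR adjusted p = 0.0460). That call was lost with the GC trend removed (-0.16, adjusted p = 0.103) and without any 1 of 5 libraries. In Aconiti Lateralis Radix Preparata the libraries of APOE overlapped (-0.19, edgeR adjusted p = 0.05001, just above the threshold).

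APOB, the structural protein of very low density lipoprotein, fell in Cimicifugae Rhizoma, with 17232, 17319 and 17834 CPM at 500 µg/mL, against 22228, 22152 and 22117 CPM at 20 µg/mL (-0.34, SE 0.104, edgeR adjusted p = 0.00658). It was not called in the other 5 extracts. A few single libraries stood low for APOB, among them Banhasasim-tang replicate 2 at 20 µg/mL with 13447 CPM, Bupleuri Radix replicate 2 at 100 µg/mL with 14728 CPM and Yijung-tang replicate 2 at 500 µg/mL with 15877 CPM, beside 18644 to 21817 CPM in the other libraries of the same groups. MTTP, its lipid loading partner, rose in Banhasasim-tang, with 94.9, 94.0 and 95.8 CPM at 500 µg/mL, against 84.3, 80.9 and 81.0 CPM at 20 µg/mL (0.21, SE 0.0367, edgeR adjusted p = 2.80e-05). It was the only 1 of the 10 genes called in Yijung-tang, with 96.3, 95.6 and 96.4 CPM at 500 µg/mL, against 86.6, 86.6 and 80.1 CPM at 20 µg/mL (0.19, SE 0.0367, edgeR adjusted p = 6.05e-04). The rises in Citri Unshius Pericarpium (0.16, edgeR adjusted p = 0.0127) and Aconiti Lateralis Radix Preparata (0.12, edgeR adjusted p = 0.00866) were lost without a filter on low counts (adjusted p of 0.197 and 0.147). Total count scaling in place of TMM moved the median of all genes in Aconiti Lateralis Radix Preparata to -0.15, and relative to that median MTTP, at -0.04, was still higher. Under that scaling 2 members (APOA2 and APOM) rose and 6 fell there, APOB (-0.32) and APOE (-0.35) among them.

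The HDL genes thus split in Aconiti Lateralis Radix Preparata: APOA2 and APOM rose while APOA1 and LCAT fell in the same libraries. In Cimicifugae Rhizoma APOA2 and APOM rose and LCAT fell. The smaller fall of APOA1 there lost its call with the GC trend removed and without some single libraries. APOB and MTTP, the pair that begins very low density lipoprotein assembly, were not both called in any of the 6 extracts. Markers of RNA quality moved with the dose of Aconiti Lateralis Radix Preparata: 6 tested long nuclear, mitochondrial ribosomal and small structural RNAs took 13.8 to 14.3% of CPM at 500 µg/mL, against 3.17 to 3.36% at 20 µg/mL, and all 6 rose, with a median log2 fold change of 1.74. In Cimicifugae Rhizoma 4 of the 6 rose, with a median of 0.40. Their summed share was higher at 500 µg/mL without overlap in each of the other 5 extracts too. It was 3.96 to 4.46% at 500 µg/mL, against 3.28 to 3.57% at 20 µg/mL in Cimicifugae Rhizoma. It was 4.18 to 4.66% at 500 µg/mL, against 3.14 to 3.31% at 20 µg/mL in Bupleuri Radix and 3.97 to 4.27% at 500 µg/mL, against 2.89 to 3.27% at 20 µg/mL in Banhasasim-tang. It was 3.42 to 3.91% at 500 µg/mL, against 2.89 to 3.05% at 20 µg/mL in Yijung-tang and 3.91 to 4.09% at 500 µg/mL, against 3.32 to 3.81% at 20 µg/mL in Citri Unshius Pericarpium. MT-RNR1, a mitochondrial ribosomal RNA, was called higher in all 6 extracts, by 2.77 in Aconiti Lateralis Radix Preparata and by 0.35 to 0.73 in the others. In Yijung-tang at 500 µg/mL MT-RNR1 had 8872 CPM and MT-RNR2, also mitochondrial ribosomal, 27917 CPM. Beside them MALAT1 had 413.7, NEAT1 269.4, RN7SL1 9.90 and RMRP 0.207 CPM. The summed share there was thus mostly mitochondrial ribosomal RNA. In vehicle the share was 2.27 to 2.55%. The part of these RNAs in the changes of the 10 genes was not tested.

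The genomic starts of some members can be set beside these values. RefSeq promoter windows (GRCh38.p14, 250 bases before to 50 bases after a start) were at hand for 6 of the 10 genes, with 9 starts, and those of APOA1, APOB, APOC3 and LCAT are not shown. They are shown for the genes that rose together in Cimicifugae Rhizoma and for APOH, which fell most widely, each 5′ to 3′ on the strand of the gene. Capitals mark a match to any of 8 motifs, read on both strands. APOA2 lies at chr1:161223579-161223878 (minus strand), APOC1 at chr19:44914422-44914721 (plus strand), APOM at chr6:31655644-31655943 (plus strand) and APOH at chr17:66229366-66229665 (minus strand).
APOA2: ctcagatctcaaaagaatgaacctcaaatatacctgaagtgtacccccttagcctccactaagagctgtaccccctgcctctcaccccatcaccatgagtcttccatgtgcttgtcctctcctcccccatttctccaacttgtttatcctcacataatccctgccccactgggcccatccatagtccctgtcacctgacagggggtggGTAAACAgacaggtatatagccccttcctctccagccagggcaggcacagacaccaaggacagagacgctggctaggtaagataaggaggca
APOC1: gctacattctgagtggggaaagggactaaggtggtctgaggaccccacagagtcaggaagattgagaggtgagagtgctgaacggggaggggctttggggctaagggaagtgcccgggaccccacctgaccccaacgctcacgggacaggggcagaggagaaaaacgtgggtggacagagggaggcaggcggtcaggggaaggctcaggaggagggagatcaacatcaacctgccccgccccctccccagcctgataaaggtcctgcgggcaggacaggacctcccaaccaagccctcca
APOM: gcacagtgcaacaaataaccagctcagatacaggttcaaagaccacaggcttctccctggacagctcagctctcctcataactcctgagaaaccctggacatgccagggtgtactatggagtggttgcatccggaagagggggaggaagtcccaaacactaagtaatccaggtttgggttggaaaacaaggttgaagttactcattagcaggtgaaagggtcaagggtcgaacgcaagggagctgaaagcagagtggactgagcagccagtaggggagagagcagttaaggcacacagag
APOH: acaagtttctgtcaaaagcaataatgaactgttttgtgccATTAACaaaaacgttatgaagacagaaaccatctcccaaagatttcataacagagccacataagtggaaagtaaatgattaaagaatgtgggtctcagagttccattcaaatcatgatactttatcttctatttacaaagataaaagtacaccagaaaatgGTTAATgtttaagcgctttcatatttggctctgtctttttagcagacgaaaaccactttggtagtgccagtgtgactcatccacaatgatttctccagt
APOA2 held the forkhead motif TGTTTAC on the opposite strand at positions -42 to -36 from the start, a motif found in 3.42% of 35116 RefSeq windows. APOH held the HNF1 motif GTTAAT at -49 to -44 and, on the opposite strand, at -210 to -205, and 6.88% of windows held that motif. No match lay in the windows of APOC1, APOM or APOE. The first MTTP window had the xenobiotic motif GCGTG (36.5% of windows) and the second, at another start, TATAAA (11.5%). The HNF4 motifs CAAAGTCCA (0.384%) and CAAAGGTCA (0.407%), the CEBP motif TTGCNNAA (10.5%) and the antioxidant motif TGACNNNGC (13.3%) were in none of the 9 windows. A match is a description of letters, and the genes that rose in Cimicifugae Rhizoma shared none of these motifs.

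The identifiers and positions of the 10 genes follow GENCODE on GRCh38. APOA1 (ENSG00000118137, chromosome 11, 116835751 to 116837950, minus strand) and APOC3 (ENSG00000110245, chromosome 11, 116829706 to 116833072, plus strand) are neighbours. APOE (ENSG00000130203, chromosome 19, 44905754 to 44909393, plus strand) lies next to APOC1 (ENSG00000130208, chromosome 19, 44914247 to 44919349, plus strand). APOA2 is ENSG00000158874 (chromosome 1, 161222292 to 161223631, minus strand) and APOB is ENSG00000084674 (chromosome 2, 21001429 to 21044073, minus strand). APOH is ENSG00000091583 (chromosome 17, 66212033 to 66256525, minus strand) and APOM is ENSG00000204444 (chromosome 6, 31652416 to 31658210, plus strand). MTTP is ENSG00000138823 (chromosome 4, 99563761 to 99623999, plus strand) and LCAT is ENSG00000213398 (chromosome 16, 67939750 to 67944131, minus strand). The span of LCAT overlaps that of SLC12A4 on the same strand over 658 bases. LCAT counts were fractional in 100% of libraries, as were those of APOB, so reads were shared between transcripts by estimate. APOC1 counts were fractional in 80% of libraries, and that gene overlaps AC011481.3, annotated on the same strand with 46.7 counts per library on average, over 722 bases. APOM overlaps BAG6 on the opposite strand over 290 bases and MTTP overlaps TRMT10A over 272 bases. The strand setting of the counting is not given in the sources used here, so reads in those overlaps cannot be assigned with certainty.

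The 100 µg/mL libraries show where along the dose range the members moved. Against 20 µg/mL, 3 members fell in Aconiti Lateralis Radix Preparata (5.68% of all genes called) and 1 fell in Yijung-tang (1.24%). The RNA quality list took 8.79 to 9.53% of CPM in Aconiti Lateralis Radix Preparata at 100 µg/mL, against 3.17 to 3.36% at 20 µg/mL, and its part in those falls was not tested. No member was called in Cimicifugae Rhizoma (1.29%), Bupleuri Radix (0.162%), Citri Unshius Pericarpium (0.0249%) or Banhasasim-tang (0.0124%). In Aconiti Lateralis Radix Preparata, APOC3 was at 47.8 ± 2.25 CPM at 20 µg/mL, 38.5 ± 0.931 CPM at 100 µg/mL and 25.7 ± 1.04 CPM at 500 µg/mL, and fell already at 100 µg/mL (-0.31, edgeR adjusted p = 0.0186). APOH was at 1269 ± 27.0, 1088 ± 24.5 and 767.5 ± 36.3 CPM at the same doses in rising order (-0.22 at 100 µg/mL, edgeR adjusted p = 0.0109). LCAT was at 38.9 ± 1.57, 33.3 ± 3.05 and 26.0 ± 0.787 CPM (-0.22, edgeR adjusted p = 0.0188). All 3 genes were lower at each higher dose. MTTP in Yijung-tang took another course, with 84.4 ± 3.74 CPM at 20 µg/mL, 74.2 ± 2.50 CPM at 100 µg/mL and 96.1 ± 0.443 CPM at 500 µg/mL, so it fell at 100 µg/mL (-0.19, edgeR adjusted p = 0.00265) and rose at 500 µg/mL. APOM in Cimicifugae Rhizoma had 63.1 ± 3.89, 68.6 ± 1.48 and 104.7 ± 9.54 CPM, and APOC1 103.3 ± 5.06, 119.6 ± 3.13 and 173.9 ± 13.0 CPM, at 20, 100 and 500 µg/mL, neither called at 100 µg/mL. For both genes the step between 100 and 500 µg/mL was the larger.

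Bojungikgi-tang had 1 library per dose, so its values carry no test. At 20, 100 and 500 µg/mL, APOM was at 59.4, 58.8 and 70.2 CPM, APOH at 1298, 1274 and 1180.5 CPM and MTTP at 85.4, 88.2 and 99.8 CPM. APOC1 stood at 102.2, 111.7 and 120.1 CPM, APOA2 at 1779, 1879 and 1944 CPM and APOB at 20780, 19721 and 18629 CPM. APOA1 was at 908.9, 957.2 and 888.7 CPM, APOC3 at 46.2, 49.5 and 46.8 CPM, APOE at 640.8, 689.2 and 673.6 CPM and LCAT at 36.6, 39.1 and 38.1 CPM. The library at the highest dose was the highest of the 3 for APOM, MTTP, APOC1 and APOA2 and the lowest for APOH, APOB and APOA1.

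Extracts of 1 set could be compared without crossing sets. The dose effect, the log2 fold change of 500 against 20 µg/mL, of Cimicifugae Rhizoma minus that of Citri Unshius Pericarpium was called for 6 of the 10 genes, 3 higher and 3 lower, with 28.2% of all genes called. It was 0.81 for APOM (SE 0.0926, edgeR adjusted p = 9.84e-10), 0.68 for APOC1 (SE 0.137, edgeR adjusted p = 8.90e-05) and 0.58 for APOA2 (SE 0.121, edgeR adjusted p = 1.52e-04). It was -0.54 for APOH (SE 0.0808, edgeR adjusted p = 4.97e-07), -0.33 for LCAT (edgeR adjusted p = 0.00466) and -0.35 for APOC3 (edgeR adjusted p = 0.0277), the last lost without any 1 of 4 libraries. Aconiti Lateralis Radix Preparata minus Bupleuri Radix was called for 3 genes, all lower, with 10.2% of all genes called: APOC3 (-0.57, SE 0.124, edgeR adjusted p = 9.78e-04), LCAT (-0.41, SE 0.0897, edgeR adjusted p = 9.30e-04) and APOH (-0.36, SE 0.0807, edgeR adjusted p = 0.00139). For APOM that difference was 0.04 (SE 0.0914, edgeR adjusted p = 0.859). The same difference was 0.20 for APOA2 (SE 0.121, edgeR adjusted p = 0.358). Banhasasim-tang minus Yijung-tang was called for 6 genes, 1 higher and 5 lower, with 12.1% of all genes called. APOC3 (-0.63, SE 0.119, edgeR adjusted p = 1.23e-04) and APOH (-0.44, SE 0.0805, edgeR adjusted p = 8.90e-05) were lower under every alternative run. APOA1 (-0.35), APOE (-0.34) and APOB (0.44) lost their calls with the GC trend removed and without any 1 of 5 to 8 libraries, with APOB at 0.26 (adjusted p = 0.251) without Banhasasim-tang replicate 2 at 20 µg/mL. LCAT (-0.29, edgeR adjusted p = 0.0192) lost its call without either of 2 libraries.

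**Figure D3:**
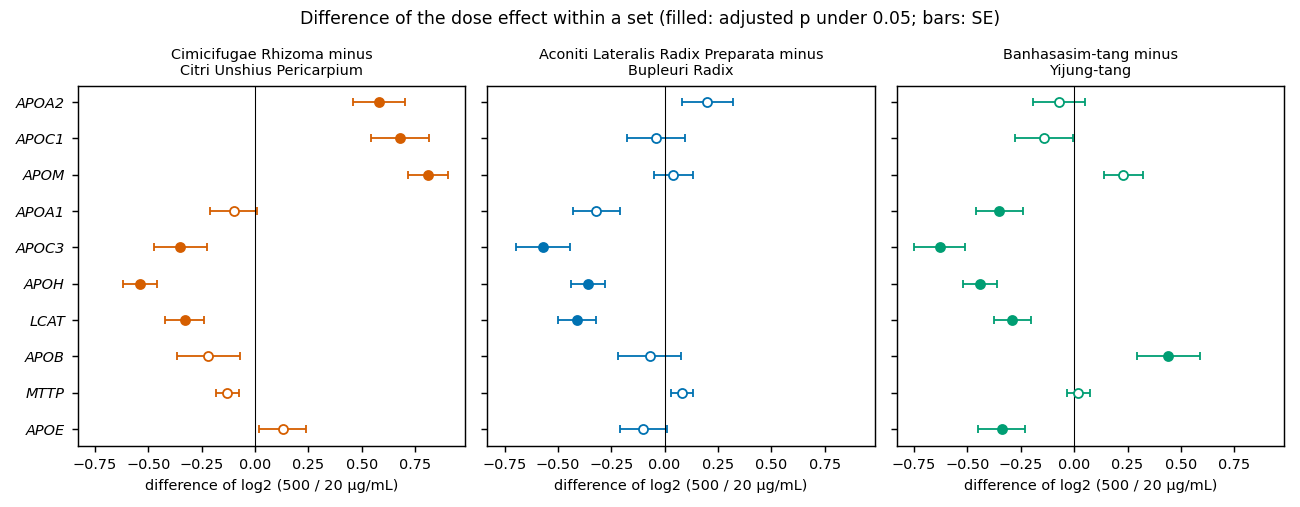
Difference of the 500 against 20 µg/mL log2 fold change between the extracts of each set, with its SE, for the 10 genes; filled points were called at an adjusted p under 0.05. APOM, at 0.81, APOC1, at 0.68, and APOA2, at 0.58, differ most between Cimicifugae Rhizoma and Citri Unshius Pericarpium, and APOC3 lies below 0 in all 3 sets.

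At 500 µg/mL itself, Cimicifugae Rhizoma against Citri Unshius Pericarpium had 3 members higher and 3 lower (41.8% of all genes called). APOM had 104.7 ± 9.54 CPM in Cimicifugae Rhizoma and 58.4 ± 4.69 CPM in Citri Unshius Pericarpium (0.84, SE 0.0649, edgeR adjusted p = 2.15e-15). APOH had 776.0 ± 50.4 CPM in Cimicifugae Rhizoma and 1194 ± 102.8 CPM in Citri Unshius Pericarpium (-0.62, SE 0.0574, edgeR adjusted p = 7.52e-13). Aconiti Lateralis Radix Preparata against Bupleuri Radix had 2 higher and 4 lower (23.5%). APOC3 was at 25.7 ± 1.04 CPM in Aconiti Lateralis Radix Preparata and 41.4 ± 4.50 CPM in Bupleuri Radix (-0.69, SE 0.0918, edgeR adjusted p = 5.22e-08), and APOA1 at 595.6 ± 12.1 and 810.0 ± 61.5 CPM in the same order (-0.44, SE 0.0788, edgeR adjusted p = 1.73e-05). The higher calls of APOA2 (0.24) and MTTP (0.17) were lost under total count scaling, at 0.11 and 0.03. Each refit without a single library called 5 of the 10 genes in place of 6, with APOA2 lost in 5 of the refits and LCAT in that without Bupleuri Radix replicate 3 (-0.15, adjusted p = 0.136). Banhasasim-tang against Yijung-tang had 1 higher and 4 lower (14.9%). APOM was at 80.9 ± 0.398 CPM in Banhasasim-tang and 61.2 ± 4.57 CPM in Yijung-tang (0.40, SE 0.0638, edgeR adjusted p = 3.33e-06). APOC3 was at 40.8 ± 3.46 CPM in Banhasasim-tang and 53.3 ± 4.10 CPM in Yijung-tang (-0.39, SE 0.0846, edgeR adjusted p = 6.26e-04).

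Against vehicle, all 18 comparisons share the same 3 vehicle libraries and cross sets. At 500 µg/mL, 4 members were higher and 4 lower in Aconiti Lateralis Radix Preparata (47.4% of all genes called), 4 and 3 in Cimicifugae Rhizoma (45.8%), 2 and 3 in Bupleuri Radix (35.7%), 2 and 3 in Banhasasim-tang (34.7%), 2 and 1 in Yijung-tang (32.6%) and 3 and 2 in Citri Unshius Pericarpium (22.5%). At 100 µg/mL, 2 were higher and 3 lower in Aconiti Lateralis Radix Preparata (37.5%), 1 and 3 in Yijung-tang (33.3%), 2 and 1 in Banhasasim-tang (29.7%), 3 and 1 in Cimicifugae Rhizoma (29.5%) and 2 and 1 in Bupleuri Radix (26.3%). In Citri Unshius Pericarpium at that dose 2 were higher and none lower, beside 12.4% of all genes called higher. At 20 µg/mL, 2 were higher and 2 lower in Aconiti Lateralis Radix Preparata (31.2%), 2 and 1 in Banhasasim-tang (28.4%) and 2 and 2 in Yijung-tang (27.2%). None were lower at 20 µg/mL in the other 3, with 1 higher in Bupleuri Radix (12.6% of all genes called higher), 2 in Citri Unshius Pericarpium (11.0%) and 2 in Cimicifugae Rhizoma (10.7%). More genes were called at 20 µg/mL against vehicle than between 500 and 20 µg/mL in 4 of the 6 extracts, with 4371 against vehicle and 607 between the doses in Yijung-tang, 3108 and 265 in Citri Unshius Pericarpium, 4576 and 2433 in Banhasasim-tang, and 3532 and 3024 in Bupleuri Radix.

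APOE stood higher than vehicle in all 18 extract groups, with log2 fold changes of 0.30 to 0.63 and edgeR adjusted p-values of at most 0.00405. The 54 replicated extract libraries had 524.0 to 761.7 CPM, against 424.8, 459.5 and 491.2 CPM in vehicle, so no extract library overlapped the vehicle. Its largest change was in Banhasasim-tang at 100 µg/mL, with 649.2, 761.7 and 717.2 CPM. The transcript of APOE has 68.5% GC, the highest of the 10 genes, and the 129 tested genes within 1 percentage point of it had medians of 0.33 to 0.54 in the same 18 comparisons. Over all genes the tenth with the highest GC (at least 61.6%) had medians of 0.24 to 0.37 against vehicle and the tenth with the lowest GC (at most 38.5%) -0.16 to -0.09, while between 500 and 20 µg/mL these medians were -0.05 to 0.05 and -0.01 to 0.05. With the GC trend of each library removed, APOE differed from vehicle by -0.06 to 0.14 and was called in 0 of 18 groups. It was as high without vehicle replicate 2, at 0.29 to 0.63, called in 18 groups. Without vehicle replicate 1 it was at 0.24 to 0.58, called in 18 groups with edgeR adjusted p-values of at most 0.0498. Under total count scaling it was called in 17, with Aconiti Lateralis Radix Preparata at 500 µg/mL at 0.13.

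**Figure D4:**
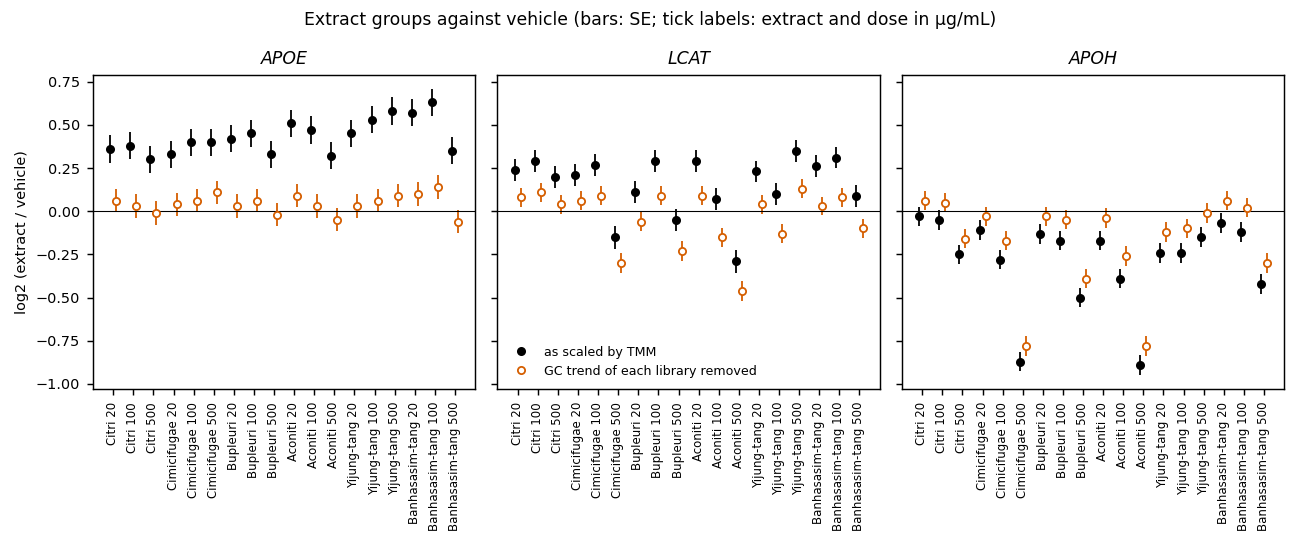
Log2 fold change against vehicle in the 6 replicated extracts, as fitted and with the GC trend of each library removed. At 500 µg/mL APOE was at 0.30 to 0.58 as fitted and at -0.06 to 0.11 with the trend removed. In the same fits APOM, which is not drawn, had 0.34 to 0.81 at 500 µg/mL in the 4 extracts where it was called, and 0.35 to 0.81 with the trend removed.

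The same removal bore on other GC-rich members. LCAT was called higher than vehicle in 11 groups and lower in 1 as fitted, and higher in 0 and lower in 4 with the trend removed. Without vehicle replicate 1, LCAT was higher in 8 groups and lower in 2. APOA1 was lower in 7 groups as fitted, in 16 with the trend removed, and in 4 without vehicle replicate 2. MTTP, whose transcript has 42.1% GC, was higher in 3 and lower in 4 groups as fitted, and higher in 10 and lower in 1 with the trend removed. It was higher in 1 group without vehicle replicate 1, in 1 without replicate 2, in 2 without replicate 3 and in 0 under total count scaling, with 4 lower each time. That scaling moved the median of all genes in Aconiti Lateralis Radix Preparata at 500 µg/mL against vehicle to -0.19, where MTTP was at -0.04, again above that median. Its lowest value was in Yijung-tang at 100 µg/mL, with 72.6, 77.1 and 72.9 CPM, against 94.5, 92.7 and 96.7 CPM in vehicle (-0.35, SE 0.0372, edgeR adjusted p = 7.30e-10), and the groups did not overlap. APOH was lower in 12 groups as fitted and 7 with the trend removed. Without vehicle replicate 1, 2 or 3, APOH was lower in 10, 11 and 9 groups in that order. APOH at 500 µg/mL was lower by a log2 fold change of -0.89 (SE 0.0575, edgeR adjusted p = 3.74e-18) in Aconiti Lateralis Radix Preparata, with 805.3, 764.0 and 733.0 CPM, against 1425, 1397 and 1446 CPM in vehicle, and was -0.78 with the trend removed. APOC3 was lower in 6 groups as fitted, in 7 with the trend removed, and in 3 (with 1 higher) without vehicle replicate 3, with -0.93 (edgeR adjusted p = 4.13e-12) in Aconiti Lateralis Radix Preparata at 500 µg/mL. APOM was higher in the same number of groups, 5, in both fits, by 0.81 (SE 0.0649, edgeR adjusted p = 6.57e-15) in Cimicifugae Rhizoma at 500 µg/mL. Without vehicle replicate 1 or without replicate 3, APOM was higher in 4 groups. APOA2 was higher in 2 groups in both fits. APOC1 was higher in 1 group in both fits and lower in 0 groups as fitted and 1 with the trend removed. APOB was called in 0 groups as fitted and higher in 1 with the trend removed. At 500 µg/mL without vehicle replicate 2, the lower calls of APOA1 in Citri Unshius Pericarpium (-0.22, adjusted p = 0.0786) and Banhasasim-tang (-0.18, adjusted p = 0.122) and of APOH in Yijung-tang (-0.16, adjusted p = 0.0563) were lost.

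Other genes of lipoprotein metabolism were read from 6 lists, and their counts are for 500 against 20 µg/mL unless stated. The lists were chosen with earlier results of these data known. Of all tested genes, 39.2% were called in Cimicifugae Rhizoma, 37.2% in Aconiti Lateralis Radix Preparata and 18.8% in Bupleuri Radix. The shares were 15.1% in Banhasasim-tang, 3.77% in Yijung-tang and 1.65% in Citri Unshius Pericarpium. The list counts were not tested against these shares. Of 13 tested other apolipoproteins and HDL proteins, 2 rose and 4 fell in Cimicifugae Rhizoma, 4 and 3 in Aconiti Lateralis Radix Preparata, 3 and 2 in Bupleuri Radix, 2 and 3 in Banhasasim-tang, 1 and none in Yijung-tang and 1 and none in Citri Unshius Pericarpium, with list medians of -0.08 to 0.05. APOL1, an intracellular and HDL-bound protein known for killing trypanosomes, and its relative APOL2 rose most in Banhasasim-tang, by 0.89 (SE 0.0549, edgeR adjusted p = 1.06e-17) and 0.80. In Aconiti Lateralis Radix Preparata they rose by 0.66 and 0.70. APOL1 also rose by 0.28 in Yijung-tang, by 0.22 in Citri Unshius Pericarpium and by 0.16 in Bupleuri Radix, and APOL2 by 0.40 in Cimicifugae Rhizoma and by 0.31 in Bupleuri Radix. APOA5, which promotes triglyceride lipolysis and lies in the same gene cluster as APOA1 and APOC3, fell by 0.63 in Cimicifugae Rhizoma, with 12.6 ± 1.24 CPM at 500 µg/mL and 19.4 ± 0.596 CPM at 20 µg/mL (edgeR adjusted p = 3.78e-09). It also fell by 0.84 in Aconiti Lateralis Radix Preparata, by 0.30 in Banhasasim-tang and by 0.28 in Bupleuri Radix.

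Of 15 genes of lipoprotein assembly and export, 4 rose and 5 fell in Aconiti Lateralis Radix Preparata, 2 and 5 in Cimicifugae Rhizoma, 3 and 5 in Bupleuri Radix, 4 and 4 in Banhasasim-tang, 1 and none in Yijung-tang, and none were called in Citri Unshius Pericarpium, with list medians of -0.04 to 0.04. PLIN2, the coat protein of lipid droplets, had 262.6 ± 1.01 CPM in Aconiti Lateralis Radix Preparata at 500 µg/mL and 108.9 ± 2.28 CPM at 20 µg/mL (1.27, SE 0.0412, edgeR adjusted p = 1.70e-29). It rose by 0.65 in Cimicifugae Rhizoma, by 0.45 in Banhasasim-tang and by 0.39 in Bupleuri Radix. DGAT2, which makes triglyceride, fell by 0.87 in Aconiti Lateralis Radix Preparata, by 0.62 in Cimicifugae Rhizoma, by 0.48 in Bupleuri Radix and by 0.43 in Banhasasim-tang. DGAT1, the other such enzyme, had 49.6 ± 1.80 CPM in Cimicifugae Rhizoma at 500 µg/mL and 91.9 ± 1.75 CPM at 20 µg/mL (-0.89, SE 0.0554, edgeR adjusted p = 1.35e-18). It fell by 1.02 in Aconiti Lateralis Radix Preparata and by 0.46 in both Bupleuri Radix and Banhasasim-tang, and rose by 0.34 in Yijung-tang. ACAT2, of cholesterol synthesis, fell by 0.59 in Aconiti Lateralis Radix Preparata, by 0.49 in Bupleuri Radix, by 0.35 in Banhasasim-tang and by 0.11 in Cimicifugae Rhizoma.

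Of 16 tested receptors and genes of uptake and turnover, 6 rose and 6 fell in Cimicifugae Rhizoma, 3 and 4 in Aconiti Lateralis Radix Preparata, 3 and 4 in Banhasasim-tang, 3 and 2 in Bupleuri Radix, 1 and 1 in Yijung-tang and none in Citri Unshius Pericarpium, with list medians of -0.09 to -0.01. VLDLR, a receptor for APOE-rich particles, was low and rose by 1.92 in Aconiti Lateralis Radix Preparata, with 7.32 ± 0.150 CPM at 500 µg/mL and 1.95 ± 0.391 CPM at 20 µg/mL. It rose by 0.88 in Cimicifugae Rhizoma.

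Among 7 tested genes of lipid transfer and efflux, 1 to 4 were called in each extract other than Citri Unshius Pericarpium, which had none. NPC1, which exports cholesterol from lysosomes, rose by 0.73 in Cimicifugae Rhizoma, by 0.60 in Aconiti Lateralis Radix Preparata, by 0.41 in Bupleuri Radix and by 0.35 in Banhasasim-tang. ABCG8, a sterol exporter of bile, fell in the same extracts, with log2 fold changes of -0.33, -0.48, -0.32 and -0.22 in that order, and rose by 0.25 in Yijung-tang. The list medians were -0.17 to 0.09. Of 15 other secreted hepatocyte proteins, 2 rose and 11 fell in Aconiti Lateralis Radix Preparata, 3 and 8 in Cimicifugae Rhizoma, 2 and 7 in Banhasasim-tang, 4 and 3 in Bupleuri Radix, none and 6 in Citri Unshius Pericarpium and 1 and 3 in Yijung-tang, with list medians of -0.20 to 0.01. HP, the haemoglobin binder haptoglobin, fell by 1.53 in Aconiti Lateralis Radix Preparata and by 1.13 in Cimicifugae Rhizoma, both larger than the fall of any of the 10 genes. It also fell by 0.63 in Banhasasim-tang, by 0.38 in Bupleuri Radix and by 0.17 in Citri Unshius Pericarpium. AMBP, the precursor of alpha-1-microglobulin, rose by 0.65 in Cimicifugae Rhizoma, by 0.30 in Aconiti Lateralis Radix Preparata, by 0.25 in Bupleuri Radix and by 0.24 in Yijung-tang. AHSG, the carrier fetuin-A, rose by 0.36 in Cimicifugae Rhizoma, by 0.32 in Bupleuri Radix, by 0.28 in Aconiti Lateralis Radix Preparata and by 0.18 in Banhasasim-tang.

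Of 25 regulators of apolipoprotein genes, 6 rose and 13 fell in Aconiti Lateralis Radix Preparata (37.2% of all genes called) and 5 and 11 in Cimicifugae Rhizoma (39.2%). In Bupleuri Radix 3 rose and 10 fell (18.8%) and in Banhasasim-tang 1 and 9 (15.1%). In Yijung-tang 2 rose and none fell (3.77%) and in Citri Unshius Pericarpium 1 and 2 (1.65%). The list medians were -0.14 to 0.08. NR1H4, the bile acid receptor, had 17.4 ± 0.720 CPM in Cimicifugae Rhizoma at 500 µg/mL and 62.1 ± 1.18 CPM at 20 µg/mL (-1.83, SE 0.0621, edgeR adjusted p = 1.37e-28), and fell by 1.76 in Aconiti Lateralis Radix Preparata, by 0.98 in Bupleuri Radix and by 0.70 in Banhasasim-tang. NR0B2, a corepressor that the bile acid receptor induces, rose by 1.13 in Cimicifugae Rhizoma and by 0.60 in both Aconiti Lateralis Radix Preparata and Bupleuri Radix, and fell by 0.23 in Citri Unshius Pericarpium. FOXA1, a forkhead factor of liver, fell by 0.86 in Aconiti Lateralis Radix Preparata, by 0.70 in Cimicifugae Rhizoma, by 0.41 in Bupleuri Radix and by 0.36 in Banhasasim-tang. CREB3L3, a liver factor known in mice to act on apolipoprotein genes, rose in 5 extracts, by 0.68 in Cimicifugae Rhizoma, 0.50 in Aconiti Lateralis Radix Preparata, 0.40 in Yijung-tang, 0.39 in Citri Unshius Pericarpium and 0.38 in Bupleuri Radix. HNF4A and CEBPA, hepatocyte factors that act on several of the 10 genes, were chosen after their values were seen. HNF4A stayed near its level, at -0.07 (edgeR adjusted p = 0.211) in Cimicifugae Rhizoma, and fell by 0.16 in Bupleuri Radix and by 0.14 in Aconiti Lateralis Radix Preparata. CEBPA fell by 1.78 in Cimicifugae Rhizoma, by 1.24 in Aconiti Lateralis Radix Preparata, by 0.95 in Bupleuri Radix and by 0.56 in Banhasasim-tang.

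Across the 19 replicated groups the mean log2 CPM of the 10 genes is described here by Pearson's r, with no test, since the groups share sets and the vehicle. APOC3 ran with APOH (0.89), LCAT (0.88) and APOA1 (0.86). APOM ran with APOC1 (0.87) and APOA2 (0.83), and APOA2 with APOC1 (0.84). Across those gene groups r was negative, at -0.81 for APOH and APOM and -0.77 for APOA2 and APOH. APOC3 and APOA1, neighbours on chromosome 11, had 0.86, whereas APOE and APOC1, neighbours on chromosome 19, had -0.08. APOE had -0.42 to 0.47 with the other 9 genes. Over 10185 protein-coding genes with a mean of 5 CPM or more, SERPINA6, which encodes the cortisol carrier of plasma, was most like APOC3 (0.979), CCNB2, a cyclin of mitosis, most like APOH (0.976), and ORMDL3 and LYZ, of sphingolipid control and lysozyme, most like APOM (0.949 each). COG4, of the Golgi (0.948), and APOA5 (0.939) were nearest to APOA1, CA5A, a mitochondrial carbonic anhydrase, to LCAT (0.935) and DBNDD2 to APOA2 (0.930). GLTPD2 was nearest to APOE (0.927), CHMP4B, of membrane scission, to APOC1 (0.919) and RBM12B to APOB (0.906). For MTTP the highest r was lower, at 0.794 with ANK2.

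**Figure D5:**
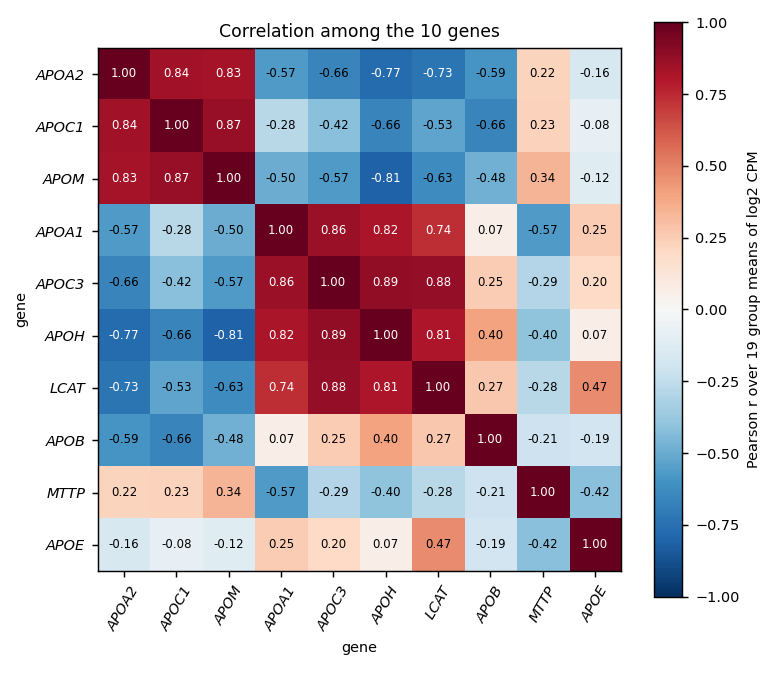
Pearson's r between the 10 genes over the mean log2 CPM of 19 groups (18 extract groups and vehicle), from -1 to 1. APOA1, APOC3, APOH and LCAT have r of 0.74 to 0.89 with each other, APOA2, APOC1 and APOM 0.83 to 0.87, and APOE lies between -0.42 and 0.47 with the rest.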

How the data were processed

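Values are the authors' expected counts from RSEM, deposited as 1 table of unscaled estimates per gene. Per the submitters' processing notes, reads were checked with FastQC 0.11.9, trimmed with Trim Galore 0.6.5, aligned with STAR 2.7.3a to GRCh38 and estimated with RSEM 1.3.3. Per the labels' protocols, libraries came from a directional MGIEasy kit and were read as paired ends; the annotation release is not given in the sources used here. Of nonzero values 24.5% were not whole to within 1e-06. The table has 207 further columns that match no sample here, and they were not used. Doses and the vehicle are those of the labels; the series text names 2% DMSO, a wortmannin control, which is not analysed here, and lower doses for toxic extracts.

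After rounding, counts entered edgeR 4.0.16 (with limma 3.58.1, in R 4.3.3; filterByExpr with a minimum count of 10, TMM factors of 0.898 to 1.04, 57 libraries, 19 group means). The common biological coefficient of variation was 4.86%. The 36 comparisons were 500, 100 and 20 µg/mL against vehicle, 500 and 100 against 20 µg/mL, and extracts of 1 set at 500 µg/mL and in their dose effect. SE is the absolute log2 fold change over the square root of F. The fit was checked on simulated data, with 50 genes altered by each fold in Aconiti Lateralis Radix Preparata at 500 µg/mL. Against 20 µg/mL it recovered 68% of genes raised 1.25-fold, 86% of those raised 1.5-fold and 86% of those raised 2-fold. Of genes lowered to 0.5-fold it recovered 46%, and it called 0.0381% of unaltered genes. Symbols, exon lengths and GC content came from GENCODE 29, which lists 57055 of the 60675 identifiers; the other 3620 hold 0.0398% of counts. Promoters are from RefSeq on GRCh38.p14.

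Members and gene lists were chosen with earlier results of these data known. All 10 members are named; of each list, the 2 called genes with the smallest p per extract between 500 and 20 µg/mL, with fewer where space was short; and genes most like each member by Pearson's r. Alternatives were other size factors, total count scaling, fits without a filter or with genes of 1 CPM or more on average, DESeq2 1.42.0, a replicate block, removal of each library's GC trend, an extract's own libraries with vehicle, and leaving out single libraries. For the differences between extracts and for the lower doses, alternatives beyond the planned ones were chosen after seeing the data. Single values of some genes of the receptor list are not reported here.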

Additional observations from a re-analysis of the deposited data

Results flagged for a closer look

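For 15 pairs of gene and set, the dose effect (500 against 20 µg/mL) differed between the extracts of a set by a direct test of the difference, an interaction term in edgeR's quasi-likelihood model at an adjusted p under 0.05. For Cimicifugae Rhizoma minus Citri Unshius Pericarpium the differences on the log2 scale were 0.81 for APOM, 0.68 for APOC1, 0.58 for APOA2, -0.54 for APOH, -0.35 for APOC3 and -0.33 for LCAT, with 28.2% of all genes called. For Aconiti Lateralis Radix Preparata minus Bupleuri Radix they were -0.57 for APOC3, -0.41 for LCAT and -0.36 for APOH, with 10.2% of all genes called. For Banhasasim-tang minus Yijung-tang they were -0.63 for APOC3, -0.44 for APOH, 0.44 for APOB, -0.35 for APOA1, -0.34 for APOE and -0.29 for LCAT, with 12.1% of all genes called. APOA1, APOE and APOB there lost their calls with the GC trend removed and without some single libraries. LCAT there, and APOC3 in Cimicifugae Rhizoma minus Citri Unshius Pericarpium, also lost their calls without some single libraries. Refits without single libraries called 3 to 6 members for Banhasasim-tang minus Yijung-tang. Among the 10 genes, APOC3, APOH and LCAT were those called in all 3 sets as fitted. The members were chosen with earlier results of these data known, so these counts cannot be read as a trait of the genes. The RNA quality list took 13.8 to 14.3% of CPM in Aconiti Lateralis Radix Preparata at 500 µg/mL, against 3.17 to 3.36% at 20 µg/mL, and its part in the differences of that set was not tested.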

How the results depend on the processing

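Between 500 and 20 µg/mL the 28 member calls were refitted under 9 alternatives each: of 252 values 240 kept direction and call, 11 lost the call and 1 turned sign, and when single libraries were left out 142 of 168 kept the call and 26 lost it. Of the 33 calls at 500 µg/mL against vehicle, 269 of 297 values were kept, 19 lost the call and 9 turned sign, and 178 of 198 were kept when single libraries were left out. In these counts a value not called in either fit was not scored. Members not called as fitted gained a call too. Between 500 and 20 µg/mL this held for 31 values under the alternatives and 6 without single libraries. At 500 µg/mL against vehicle it held for 21 and 3 values in the same order. In Citri Unshius Pericarpium 2 members were called between 500 and 20 µg/mL, but 0 from its own libraries with vehicle, and 5 against vehicle, but 3 under total count scaling and 3 with the GC trend removed. Without a filter on low counts Yijung-tang had 3 members called between 500 and 20 µg/mL in place of 1, and the comparisons at 100 or 20 µg/mL had 66 member calls in place of 41. Shares of all genes called under the alternatives are not given here. A gain in member calls therefore cannot be told apart from a gain over all genes. With the GC trend removed the difference of Banhasasim-tang and Yijung-tang was called for 3 members in place of 6. Leaving out single libraries gave 0 to 2 calls for Citri Unshius Pericarpium between 500 and 20 µg/mL, 3 to 5 for it against vehicle, 3 to 5 for Banhasasim-tang against vehicle and 3 to 6 for the difference of Banhasasim-tang and Yijung-tang. Values that turned sign at 500 µg/mL against vehicle were those of APOE with the GC trend removed, with or without a replicate block, at -0.01 in Citri Unshius Pericarpium, -0.02 in Bupleuri Radix, -0.05 in Aconiti Lateralis Radix Preparata and -0.06 in Banhasasim-tang. MTTP, not called in Bupleuri Radix as fitted (-0.02), turned to 0.09 there with the GC trend removed, with or without the block, and to -0.04 in Aconiti Lateralis Radix Preparata under total count scaling, both against vehicle and between 500 and 20 µg/mL. The cause was not tested. Depth limits these genes little, since the lowest count of any of them in any library was 474.6, for LCAT.

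The replicate numbers were not treated as pairs: same-numbered libraries of 2 groups had correlated deviations of at most 0.21, and in no comparison did all pairs exceed 0.1. Low correlations over all genes do not show that the libraries were unpaired. With the replicate number as a block, 9 members in place of 7 were called between 500 and 20 µg/mL in Aconiti Lateralis Radix Preparata and 5 in place of 4 in Bupleuri Radix, with counts of 2, 8, 1 and 6 unaltered in Citri Unshius Pericarpium, Cimicifugae Rhizoma, Yijung-tang and Banhasasim-tang. The share of all genes called with the block is not given here, so these gains cannot be read as particular to the members.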
